A study of Mus musculus with 12 samples.

Results

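The genes described here are 10 transcription factors tied to memory B cells: Bhlhe41, Bhlhe40, Zbtb20, Zbtb32, Bach2, Klf2, Tbx21, Hhex, Rora and Foxo1. Each was a row of a count table of 56941 genes, and all 10 were among the 15148 genes that passed the filter on low counts. They were chosen by name with earlier results of these data known, so the genes tested were not picked blind to the data. Bhlhe41 and Zbtb20 were also selected on their pattern over the groups, and the values of those 2 genes are given as a description with no test. RNAseq libraries came from B cells sorted from the peritoneal cavity (PerC) of KI mice and of littermate controls, with 3 biological replicates for each of 4 groups, which were B2 and MemB of each genotype. B2 were positive and MemB negative for both IgD and IgM at the surface. KI mice carried Cd21-Cre and an R26-LSL-Gpr34Q340X-IRES-GFP allele, which makes GFP and a truncated receptor with gain of function once Cre has removed a stop cassette. Cd21-Cre is active in mature B cells and in follicular dendritic cells, and the sources used here name IgD and IgM as the sort markers of these libraries and do not say whether GFP was used. The labels give neither the alleles of the control mice nor ages, and the methods of the study give a range of ages in weeks for all its mice, not the age of each.

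Memory B cells persist at rest after an immune response and divide or become plasma cells quickly when antigen returns, and transcription factors set that balance. Bach2 represses the plasma cell programme, Zbtb32 restrains the recall response, and Hhex and Zbtb20 have been tied to the making or upkeep of memory and plasma cells. Klf2 and Foxo1 keep lymphocytes quiescent and control homing receptors. Tbx21 encodes T-bet, which directs switching to IgG2c and drives Cxcr3, and Rora encodes a nuclear receptor that has been tied to IgA memory. Bhlhe41 and its paralog Bhlhe40 encode repressors that bind E-boxes, dampen the circadian clock and are needed for B-1a cells, an innate-like B cell of the PerC.

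The libraries held 29895031 to 39732039 counts, of which ribosomal RNA genes took 29.3% to 38.3%, so that 3 counts were worth 0.0734 to 0.102 CPM (counts scaled to library size). Gpr34 transcripts separated the genotypes in both cell types, with means of 105 against 4.92 CPM in B2 and 152 against 23.0 CPM in MemB. Summed markers of B cells were alike in range in all groups, from 3370 to 3844 CPM over the 12 libraries, but 2 of the 8, Fcer2a (edgeR log2 fold change -1.77, SE 0.22, adjusted p = 4.3e-06) and Cr2 (-1.23, SE 0.24, adjusted p = 0.0034), fell in MemB against B2. Of 7 markers of memory B cells, Cd80 (2.53, SE 0.33, adjusted p = 1.4e-05), Fas (3.22, SE 0.74, adjusted p = 0.017) and Cxcr3 rose in MemB and 0 fell. Ighd transcripts had means of 1526 CPM in control B2 and 1404 CPM in KI B2, and of 228 CPM in control MemB and 89.7 CPM in KI MemB. Ighm transcripts were not absent from MemB sorted as IgM-, at 2441 CPM in control and 443 CPM in KI. Replicate 3 of each group was of the other sex by its Xist counts. Nothing in the labels says that same-numbered B2 and MemB libraries came from the same mouse.

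The paralogs Bhlhe41 and Bhlhe40 lie on the same chromosome, and their windows are shown because their products bind the E-box CACGTG and their transcripts behaved differently across these libraries. The sequences are the 250 bases before the outermost annotated start of each gene, read from GRCm39 with GENCODE M39 starts, on the strand of the gene. Bhlhe41 lies at chr6:145803969-145811430 on the minus strand and its window at chr6:145811431-145811680. Bhlhe40 lies at chr6:108636626-108644502 on the plus strand and its window at chr6:108636376-108636625. Zbtb32 lies at chr7:30289105-30302262 on the minus strand, and its window at chr7:30302263-30302512 is shown because it holds the letters of a core for T-box factors, the family of T-bet. Capitals mark CACGTG, a FOXO motif (GTAAACA), a ROR core (AGGTCA, seen here as its reverse TGACCT) and a T-box core (GGTGTGA).
Bhlhe41: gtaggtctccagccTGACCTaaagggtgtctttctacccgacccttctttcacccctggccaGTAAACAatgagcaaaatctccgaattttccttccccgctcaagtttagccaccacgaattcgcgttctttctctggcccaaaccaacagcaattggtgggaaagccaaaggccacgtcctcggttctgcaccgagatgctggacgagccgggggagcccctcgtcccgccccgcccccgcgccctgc
Bhlhe40: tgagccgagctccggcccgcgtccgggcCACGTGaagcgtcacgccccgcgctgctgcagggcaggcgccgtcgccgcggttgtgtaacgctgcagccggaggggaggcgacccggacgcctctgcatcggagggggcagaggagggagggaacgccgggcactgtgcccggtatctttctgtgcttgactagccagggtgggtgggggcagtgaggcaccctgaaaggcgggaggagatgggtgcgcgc
Zbtb32: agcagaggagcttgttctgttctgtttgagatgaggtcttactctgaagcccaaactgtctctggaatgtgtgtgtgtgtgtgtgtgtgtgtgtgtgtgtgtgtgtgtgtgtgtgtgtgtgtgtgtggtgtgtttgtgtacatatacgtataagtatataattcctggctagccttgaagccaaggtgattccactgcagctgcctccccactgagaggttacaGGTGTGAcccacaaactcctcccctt

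These motifs and others were searched on both strands of the windows of the 10 genes and of all 21757 protein-coding genes. CACGTG was found in the window of Bhlhe40 alone among the 10 genes, at -222 to -217 counted from the base before the start as -1, and in 5.70% of all windows. GTAAACA was found in that of Bhlhe41 at -188 to -182, and in 2.97% of all windows. AGGTCA or its reverse was also found in that of Bhlhe41, at -236 to -231, and in 13.9% of all windows. GGTGTGA was found in that of Zbtb32 at -26 to -20, and in 3.35% of all windows. The AP-1 and MARE core TGACTCA, which Bach factors bind, was found in 0 of the 10 and in 4.15% of all windows. The KLF core CACCC was found in 8 of the 10, all but Zbtb32 and Foxo1, and in 51.3% of all windows. Those 8 windows were from 52.0% (Zbtb20) to 76.4% (Hhex) G and C, where the median of all windows was 51.2%. The windows of Zbtb32 and Foxo1 were at 48.0% and 56.0%. The share among windows of like G and C content was not computed. These matches describe letters in a window and are not evidence of binding. Zbtb20 alone has 132 annotated transcripts over 766873 bases, so its outermost start need not be the start these cells use. The remaining genes, all protein coding, lie on GRCm39 at chr16:42696093-43462965 (Zbtb20), chr4:32238714-32586108 (Bach2), chr8:73072726-73075502 (Klf2), chr11:96988897-97006158 (Tbx21), chr19:37423258-37429179 (Hhex), chr9:68561068-69295528 (Rora) and chr3:52175757-52260642 (Foxo1).

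The comparison of MemB with B2, averaged over the genotypes, asked which of the factors mark the memory state. Calling a gene required an adjusted p below 0.05 together with a log2 fold change beyond 1 in either direction. Of the 8 genes tested, Tbx21 and Zbtb32 rose in MemB and 0 fell, where 153 of the 15148 genes (1.01%) were called, 97 higher and 56 lower. Klf2 was higher in MemB and Bach2 and Foxo1 were lower with adjusted p below 0.05 but inside the fold limit, and Bhlhe40, Hhex and Rora did not pass. Every MemB library lay above every B2 library for Klf2 and Tbx21 among the 8 tested, and for the selected genes Bhlhe41 and Zbtb20, where 1.26% of all genes were separated in either direction. In bulk libraries such as these, fewer cells with a transcript and less transcript per cell cannot be told apart.

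**Figure D1:**
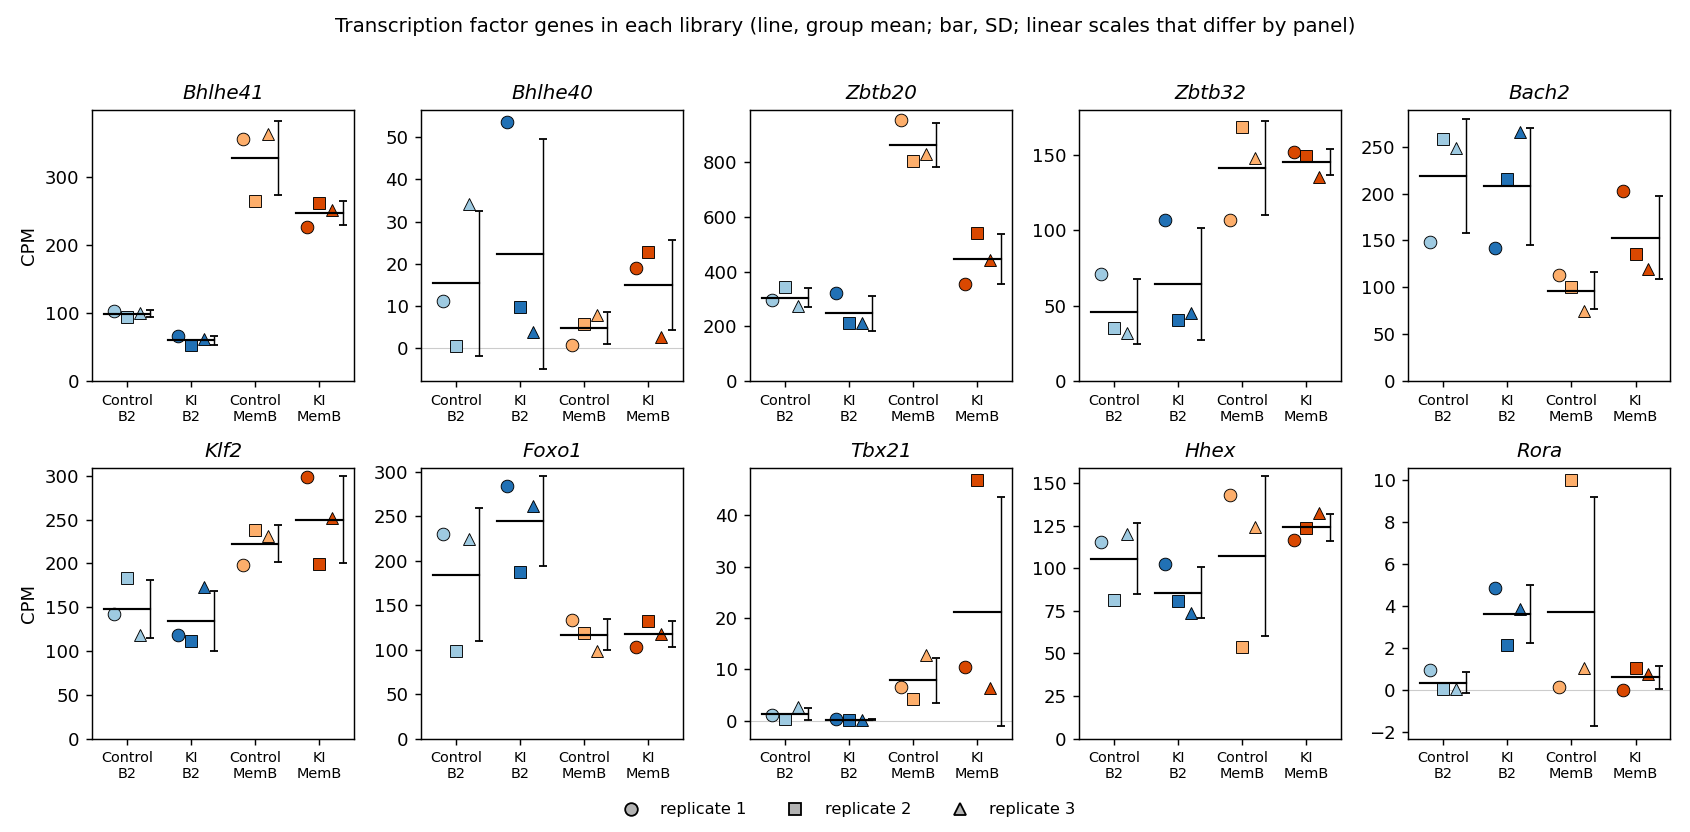
Normalised counts (CPM, linear axes that differ by panel) of the 10 transcription factor genes in the 12 libraries. Points are libraries with a marker shape for each replicate number, lines are group means and bars are SD (n = 3); Bhlhe41, Zbtb20, Klf2 and Tbx21 have every MemB library above every B2 library, and Bhlhe40 and Rora spread widely within groups.

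Bhlhe41 had values of 103, 93.4 and 99.5 CPM in control B2 and of 65.4, 51.9 and 60.8 CPM in KI B2. In MemB it had 355, 265 and 362 CPM in control and 226, 261 and 252 CPM in KI. All 4 groups were apart from each other, in the order control MemB (327 ± 54.3 CPM, SD, n = 3), KI MemB (246 ± 18.2), control B2 (98.6 ± 4.87) and KI B2 (59.4 ± 6.84). Mean CPM in MemB was 3.63 times that in B2, with a log2 fold change of 1.89 (SE 0.18). The ratio was 3.32 in control and 4.15 in KI mice. KI libraries lay below control libraries in both cell types, by a log2 fold change of -0.41 (SE 0.24) in MemB and of -0.73 (SE 0.24) in B2. Its biological coefficient of variation was 27.8%, and 2.46% of the genes tested had a lower one, while 95.7% had a lower CPM. Values for Zbtb20 (26.5%), Klf2 (28.9%), Foxo1 (30.6%) and Bach2 (30.7%) were similar. A small spread within groups can be part of the pattern on which Bhlhe41 was selected. Transcripts of 4 other annotated genes, all on the other strand, overlap 26.2% of the exon bases of Bhlhe41. The sources used here do not say whether counting used strand.

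Bhlhe40, the paralog, showed no such order. It had 11.3, 0.604 and 34.2 CPM in control B2, 53.5, 9.76 and 3.78 CPM in KI B2, 0.682, 5.81 and 7.88 CPM in control MemB, and 19.1, 22.9 and 2.77 CPM in KI MemB. All 4 groups overlapped, and the highest and lowest B2 libraries were further apart than any group means. The log2 fold change of MemB against B2 was -1.13 (SE 0.77, adjusted p = 0.58). KI against control gave 1.64 (SE 1.10, adjusted p = 0.62) in MemB and 0.54 (SE 1.08, adjusted p = 1.00) in B2. Without KI B2 replicate 1, the library at 53.5 CPM, the B2 value was -1.19.

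Zbtb20 encodes a BTB zinc finger repressor. It had 295, 344 and 274 CPM in control B2 and 321, 211 and 210.2 CPM in KI B2. Control MemB had 954, 805 and 831 CPM, and KI MemB had 356, 542 and 442 CPM. Control MemB (863 ± 79.5 CPM, SD, n = 3) stood above KI MemB (447 ± 92.7), which stood above both B2 groups (304 ± 35.7 in control and 248 ± 63.8 in KI), and these overlapped each other. The log2 fold change of MemB against B2 was 1.18 (SE 0.15). The mean in MemB was 2.84 times that in B2 in control mice and 1.80 times in KI mice. KI against control was -0.95 (SE 0.21) in MemB, with KI at 0.518 of the control mean, and -0.30 (SE 0.21) in B2. The difference between these effects was -0.65 (SE 0.29). As for Bhlhe41, none of these values was tested, because the gene was selected on this pattern.

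Zbtb32, a second BTB zinc finger gene, had 71.0, 35.4 and 31.9 CPM in control B2 and 107, 40.4 and 45.2 CPM in KI B2. It had 107, 169 and 148 CPM in control MemB and 152, 149 and 136 CPM in KI MemB. The cell types overlapped only in that KI B2 replicate 1 was at 107.2 CPM and control MemB replicate 1 at 107.0 CPM. Zbtb32 rose in MemB by a log2 fold change of 1.40 (SE 0.26, adjusted p = 0.0024). With replicate 3 left out of every group the fold change was 1.21 with adjusted p = 0.098, and the call was lost. MemB of the genotypes had nearly the same means, 141 ± 31.4 CPM in control and 146 ± 8.75 CPM in KI (SD, n = 3), with a log2 fold change of 0.04 (95% interval -0.70 to 0.79, adjusted p = 0.99). In B2 it was 0.48 (SE 0.37, adjusted p = 0.95), and -0.11 without KI B2 replicate 1. An antisense gene, Gm71682, overlaps 43.2% of the exon bases of Zbtb32, so its counts are uncertain if strand was not used.

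Bach2 was lower in MemB. It had 149, 258 and 248 CPM in control B2, 141, 216 and 266 CPM in KI B2, 113, 100.2 and 75.0 CPM in control MemB, and 203, 135 and 119.6 CPM in KI MemB. Control MemB lay below every other library, whereas KI MemB overlapped both B2 groups. The log2 fold change of MemB against B2 was -0.81 (SE 0.20, adjusted p = 0.036), inside the fold limit, and adjusted p was 0.059 with the replicate block and 0.019 to 0.13 with 1 library left out in turn. The ratio of mean CPM was 0.441 in control and 0.735 in KI mice. The MemB libraries of KI mice all lay above those of controls, with a log2 fold change of 0.67 (SE 0.29, unadjusted p = 0.028, adjusted p = 0.38), which did not pass. In B2 the effect was -0.07 (SE 0.29, adjusted p = 1.00), and the difference between the effects, 0.74 (SE 0.41, adjusted p = 0.66), did not pass either.

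Foxo1, a forkhead factor, had 229.6, 98.2 and 225 CPM in control B2 and 284, 187 and 261 CPM in KI B2. It had 133, 119 and 98.1 CPM in control MemB and 103, 132 and 118 CPM in KI MemB. Control B2 replicate 2 sat within the range of MemB and the other 5 B2 libraries sat above it. The log2 fold change of MemB against B2 was -0.85 (SE 0.20, adjusted p = 0.023). Without control B2 replicate 2 it was -1.01 with adjusted p = 0.0035, past the fold limit. The genotypes had means of 117 ± 17.8 and 118 ± 14.6 CPM in control and KI MemB (SD, n = 3), a log2 fold change of 0.01 (95% interval -0.57 to 0.60, adjusted p = 1.00). In B2 it was 0.41 (SE 0.29, adjusted p = 0.93).

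Klf2 was higher in MemB. It had 142, 184 and 118 CPM in control B2, 118, 111 and 173 CPM in KI B2, 199, 238 and 231 CPM in control MemB, and 299, 199.6 and 252 CPM in KI MemB. The lowest MemB library, at 199 CPM, stood above the highest B2 library, at 184 CPM, and within a cell type the genotypes overlapped. The log2 fold change was 0.74 (SE 0.18, adjusted p = 0.029), inside the fold limit. KI against control gave 0.17 (SE 0.26, adjusted p = 0.89) in MemB and -0.14 (SE 0.26, adjusted p = 1.00) in B2. With replicate 3 left out of every group, adjusted p was 0.13 for Klf2, 0.44 for Bach2 and 0.28 for Foxo1, and with a fit that was not robust it was 0.060, 0.085 and 0.063. With 1 library left out in turn it ranged from 0.020 to 0.11 for Klf2 and from 0.0035 to 0.098 for Foxo1.

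Tbx21 was low in B2. It had 1.04, 0.335 and 2.61 CPM in control B2 and 0.288, 0.196 and 0.153 CPM in KI B2, which were 6 to 9 counts. It had 6.65, 4.25 and 12.7 CPM in control MemB and 10.5, 46.9 and 6.32 CPM in KI MemB. Every MemB library lay above every B2 library, and every KI B2 library lay below every control B2 library. Tbx21 rose in MemB by a log2 fold change of 4.60 (SE 0.89, adjusted p = 0.0032). Without KI MemB replicate 2, the library at 46.9 CPM, it was 3.93 with adjusted p = 0.068 and the call was lost. KI against control gave -2.63 in B2 (SE 1.17, unadjusted p = 0.031, adjusted p = 0.84) and 1.43 in MemB (SE 1.09, adjusted p = 0.68), and without that library the MemB value was 0.10. The difference between these effects was 4.06 (SE 1.60, unadjusted p = 0.016, adjusted p = 0.46), which edgeR did not call. DESeq2 called it, at 4.11 with adjusted p = 0.044.

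Rora was low throughout and had the highest fitted biological coefficient of variation of the 10 genes, 131%. It had 0.941, 0.0671 and 0.0613 CPM in control B2, the latter being 2 counts each, and 4.86, 2.15 and 3.86 CPM in KI B2. It had 0.142, 10.03 and 1.05 CPM in control MemB and 0, 1.07 and 0.749 CPM in KI MemB. KI B2 libraries lay above control B2 libraries, with a log2 fold change of 3.33 (SE 1.93, adjusted p = 0.88). MemB against B2 gave 0.41 (SE 1.25, adjusted p = 0.95), and -0.91 without control MemB replicate 2, the library at 10.03 CPM. KI against control in MemB gave -2.61 (SE 1.87, adjusted p = 0.65) and 0.03 without that library. The difference between the KI effects, -5.95 (SE 2.68, unadjusted p = 0.034, adjusted p = 0.54), did not pass. Igha, the IgA heavy chain gene, had values of 4294, 2350.2 and 4738 CPM in KI MemB and of 352, 632 and 1078 CPM in control MemB. A link between Rora and Igha levels was not tested.

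Hhex, a homeobox gene, had 115, 81.5 and 119.8 CPM in control B2, 102, 80.8 and 73.8 CPM in KI B2, 143, 53.9 and 124 CPM in control MemB, and 116, 124 and 132 CPM in KI MemB. The KI groups did not overlap each other, and control MemB spanned both through replicate 2. The log2 fold change of MemB against B2 was 0.28 (SE 0.23, adjusted p = 0.68). KI against control gave 0.21 (SE 0.33, adjusted p = 0.89) in MemB, which became -0.11 without control MemB replicate 2, and -0.30 (SE 0.33, adjusted p = 1.00) in B2.

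**Figure D2:**
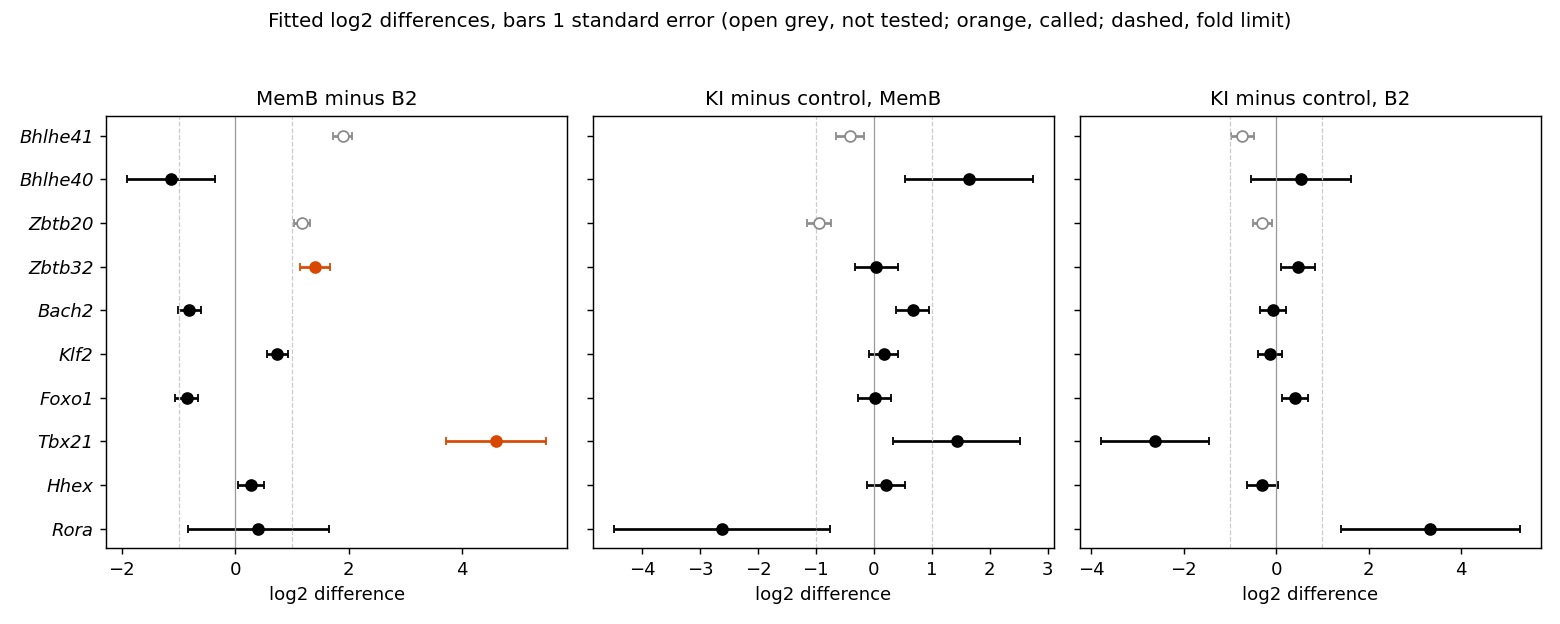
Fitted log2 fold changes of the 10 genes in MemB against B2 and in KI against control within MemB and within B2, with bars of 1 SE. Open grey points are Bhlhe41 and Zbtb20, which were not tested, orange points were called (Zbtb32 and Tbx21, in MemB against B2 alone) and dashed lines are the fold limit of 1.

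KI was compared with control in each cell type to ask what the allele changes. In MemB, 0 of the 8 genes tested were called by edgeR, where 43 of all genes (0.284%) were. Bach2 had an unadjusted p below 0.05, where 1676 of all genes did, and DESeq2 called 0 of the 8. The libraries of the genotypes did not overlap for Bach2 among the 8 tested and for the selected Bhlhe41 and Zbtb20, where 12.1% of all genes were separated. In B2, 0 of the 8 were called by edgeR, where 1 gene (0.0066%) was. Tbx21 had an unadjusted p below 0.05, where 870 of all genes did, and DESeq2 called 0 of the 8. Tbx21, Rora and the selected Bhlhe41 were separated in B2, where 10.2% of all genes were. The difference of the KI effect between MemB and B2 called 0 of the 8 by edgeR, where 10 genes (0.066%) were called. Tbx21 and Rora had an unadjusted p below 0.05, where 1286 of all genes did, and DESeq2 called Tbx21. Over all genes, DESeq2 called many more than edgeR in each of these comparisons, and its numbers are given in the closing section.

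Levels were compared between genes only as CPM per kilobase of the canonical transcript. Klf2 had the highest mean level in all 4 groups, from 67.2 ± 17.1 CPM per kilobase in KI B2 to 125 ± 24.8 in KI MemB (SD, n = 3). In control MemB it was followed by Zbtb32 (79.6 ± 17.7), Hhex (59.4 ± 26.1), Bhlhe41 (53.2 ± 8.83) and Zbtb20 (32.1 ± 2.96). Neighbours from Zbtb32 to Bhlhe41 differed by less than their spread. Foxo1 (13.5 ± 2.05) and Bach2 (10.7 ± 2.18) came next in that group, whereas in control B2 they stood at 21.2 ± 8.59 and 24.3 ± 6.77, above Bhlhe41 (16.0 ± 0.792) and Zbtb20 (11.3 ± 1.33). Rora was the lowest in control B2 (0.0323 ± 0.0459), control MemB (0.339 ± 0.496) and KI MemB (0.0551 ± 0.0499), and Tbx21 was the lowest in KI B2 (0.0853 ± 0.0276). Over merged exons in place of the canonical transcript, Klf2 again ranked 1 in each group, and Hhex, whose merged exons are 5056 bases against 1802, moved down to between 3 and 5.

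**Figure D3:**
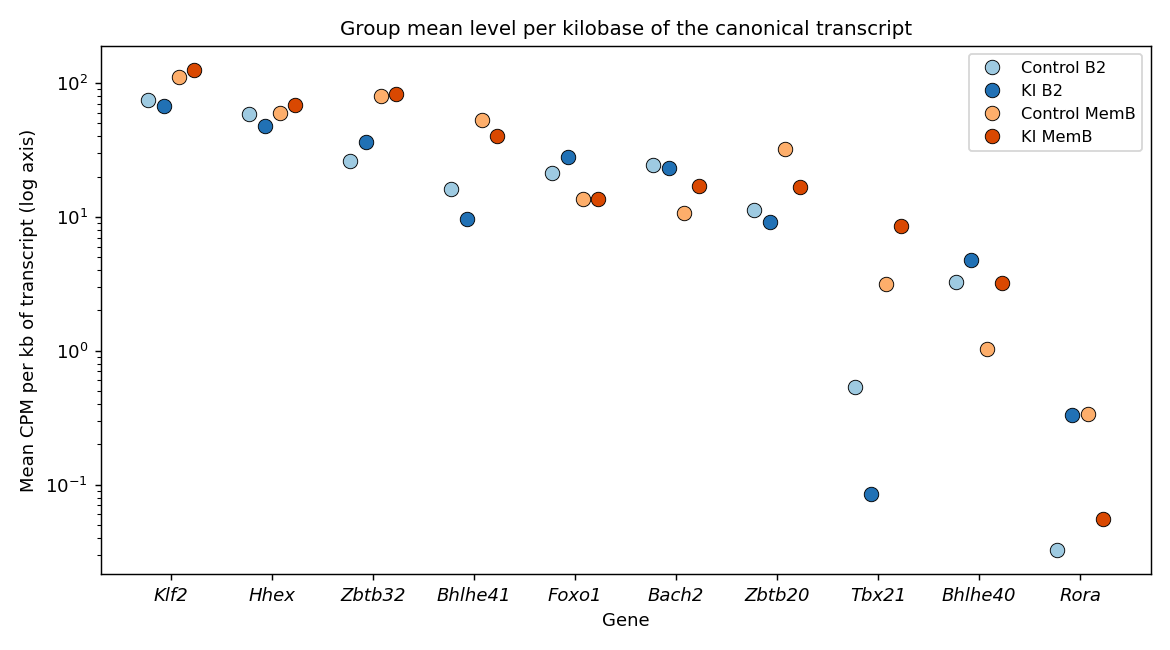
Group mean CPM per kilobase of the canonical transcript (log axis) for the 10 genes, ordered by their mean over the 4 groups. Klf2 is highest in each group, from 67.2 to 125, and Rora, Tbx21 and Bhlhe40 are lowest.

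Other factors were read from lists of related genes, with the median log2 fold change of all genes at 0.02 in MemB against B2 and at -0.03 in either comparison of KI with control. Over all 15148 genes, an unadjusted p below 0.05 was reached by 1957 in MemB against B2, by 1676 and 870 in KI against control in MemB and in B2, and by 1286 for the difference of the KI effect. Of 10 tested factors of germinal centre and plasma cells, edgeR called 2 lower in MemB and 0 higher, and DESeq2 called 2 lower and 1 higher, Creb3l2 (2.06, SE 0.60, adjusted p = 0.086 by edgeR). Those that edgeR called were Bcl6, which directs the germinal centre programme, at -1.82 (SE 0.47, adjusted p = 0.046), and Zbtb18, a zinc finger repressor, at -1.18 (SE 0.31, adjusted p = 0.047). Bcl6 had 41.0, 51.3 and 52.2 CPM in control B2 and 2.47, 8.65 and 24.8 CPM in control MemB, and its KI groups overlapped. Of 18 tested factors named in memory, atypical memory or B-1 cells, Runx2 rose, at 3.02 (SE 0.70, adjusted p = 0.019), and 0 fell, while DESeq2 called 1 up and 1 down. Of 18 tested factors of B cell identity, which include Pax5 and Ebf1, 0 were called in either direction by edgeR or DESeq2, and 7 had an unadjusted p below 0.05. Tcf4 (0.70, SE 0.16, adjusted p = 0.013) and Pax5 (-0.52, SE 0.14, adjusted p = 0.050) had the lowest p. Among 12 tested paralogs of the factors, 0 were called by either tool, and 3 had an unadjusted p below 0.05. Foxp1, a forkhead factor, was lower in MemB at -0.61 (SE 0.14, adjusted p = 0.016), inside the fold limit, with no overlap of the cell types. In KI against control, edgeR called 0 factors of these lists in either cell type. Those with an unadjusted p below 0.05 in MemB were 1 of the germinal centre and plasma cell list, 3 of the memory list, 2 of the identity list and 0 paralogs. In B2 they were 1 of the memory list, 1 of the identity list and 0 of the others, and for the difference of the KI effect 1, 3, 2 and 0 in the same order as in MemB. DESeq2 called 2 of the memory list lower in KI MemB, Ski and Egr3, and Ski also for the difference (-1.95, SE 0.58, adjusted p = 0.32 by edgeR).

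The circadian list was read because Bhlhe41, Bhlhe40 and Rora act on the clock. Of 17 genes, 13 were tested, and edgeR called 0 in any comparison, with 3 at an unadjusted p below 0.05 in MemB against B2 and 0 in the others. DESeq2 called Per2 higher in MemB. In MemB against B2 their median was 0.31, and those with the lowest p were Nfil3 (3.02, SE 1.24, adjusted p = 0.27) and Per2 (1.63, SE 0.68, adjusted p = 0.28). In KI against control the median was 0.05 in MemB and -0.09 in B2. Times of day at which the mice were killed were not given in the sources used here.

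Of 8 genes of growth arrest and metabolism controlled by FOXO factors, 0 were called in any comparison by edgeR or DESeq2, with at most 1 at an unadjusted p below 0.05, and 1 of 8 had a positive value in MemB against B2, with a median of -0.29. Those with the lowest p there were Sesn1 (-0.53, SE 0.26, adjusted p = 0.39) and Pik3ip1 (-0.66, SE 0.35, adjusted p = 0.43). Ciita, a target that Zbtb32 represses, and 4 genes of the MHC class II pathway had a median of 0.10 in MemB against B2, and 0 of the 5 were called in any comparison by either tool or had an unadjusted p below 0.05. Of 5 tested targets of T-bet, Cxcr3, a chemokine receptor, rose in MemB by 3.92 (SE 0.39, adjusted p = 4.8e-08) and 0 fell. Cxcr3 had 26.6, 34.5 and 70.9 CPM in control MemB and 108, 151 and 97.8 CPM in KI MemB, against at most 10.5 CPM in any B2 library. Ccl5, another target, in KI MemB fell by 3.53 on the log2 scale (SE 0.76, adjusted p = 0.029), from a mean of 67.8 to 5.88 CPM. T and NK cells also express Ccl5, and their summed markers were lower in the same KI MemB libraries (51.4 to 65.3 CPM against 177 to 386 CPM in control MemB), and their part in this fall was not tested. DESeq2 also called Itgax higher in MemB against B2 and Il2rb lower in KI MemB, and for the difference of the KI effect it called Cxcr3 up and Il2rb down.

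Markers of other cells varied along with several of these genes. The summed level of 9 markers of B-1 cells was 674, 551 and 438 CPM in control MemB, where Bhlhe41 and Zbtb20 were highest, and 177, 265 and 268 CPM in KI MemB. It was 155 to 265 CPM in control B2 and 148 to 223 CPM in KI B2, and 0 of the 9 markers were at 0 in a whole group. In MemB against B2 edgeR called Spn, which encodes CD43, higher at 2.10 (SE 0.30, adjusted p = 5.4e-05), and 0 lower, with 6 of the 9 positive and Il5ra (-0.86, SE 0.26, adjusted p = 0.11), Ighv11-2 and Cd5 negative. Of the 9, Ighv11-2 and Il5ra fell in KI MemB by edgeR, DESeq2 called 5 lower, and 1 had a positive value. For the difference of the KI effect edgeR called Ighv11-2 (-5.48, SE 1.00, adjusted p = 0.015) and DESeq2 called 3, all negative. The study gated B-1 cells of the PerC as IgD- and IgM+, and MemB were sorted as IgD- and IgM-. Ighm transcripts nonetheless had means of 2441 CPM in control MemB and 443 CPM in KI MemB, against 4222 CPM in control B2 and 3159 CPM in KI B2. The part of B-1 cells in the levels of Zbtb20 and Bhlhe41 was not tested. The summed level of 22 markers of T, NK and innate lymphoid cells was 197, 386 and 177 CPM in control MemB, and the 386 CPM belonged to replicate 2, the library with 10.03 CPM of Rora. It was 51.4 to 65.3 CPM in KI MemB, 71.4 to 111 CPM in control B2 and 87.8 to 125 CPM in KI B2. Of the 18 tested, edgeR called Nkg7 lower in KI MemB, DESeq2 called 9 lower, and 0 of the 22 were at 0 in a whole group. Rora is also expressed by T and innate lymphoid cells, Tbx21 by NK and T cells, and Klf2 and Foxo1 by T cells, and their part in these values was not tested.

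Other marker sums varied in fewer libraries. The sum of 6 mast cell markers was 241 CPM in control MemB replicate 3, 45.2 CPM in control MemB replicate 1, 74.9 CPM in KI B2 replicate 3 and at most 1.77 CPM in the other 9 libraries. Of the 3 of these tested, edgeR called Cma1 lower in KI MemB (-6.40, SE 1.41, adjusted p = 0.037) and for the difference of the KI effect (-9.45, SE 1.84, adjusted p = 0.046). DESeq2 called Cma1 and Cpa3 lower in the same comparisons. That of 15 macrophage and dendritic cell markers was 2.76 to 38.1 CPM, with 6 to 8 of the 15 at 0 in a whole group. That of 8 plasma cell markers was 233 to 356 CPM in KI MemB and 144 to 266 CPM in control MemB. Of the 8, Jchain, the joining chain of IgA and IgM, rose in MemB against B2 (3.24, SE 0.47, adjusted p = 6.3e-05) and in KI MemB against control (3.80, SE 0.68, adjusted p = 0.0049), from a mean of 10.1 to 140.2 CPM. The difference of its KI effect between MemB and B2 was 4.43 (SE 0.90, adjusted p = 0.046). It was the 1 marker of the 8 that edgeR called in these comparisons. DESeq2 called Jchain, Tnfrsf17 and Derl3 higher in MemB against B2, and Jchain alone in KI MemB and for the difference. In KI MemB 5 of the 8 had positive values, while Mzb1 (-0.66, SE 0.35, adjusted p = 0.48 by edgeR), Prdm1 and Fkbp11 had negative ones. That of 6 germinal centre markers was 3.04 to 10.9 CPM in control MemB, at most 7.43 CPM in control B2 and 1.86 CPM in KI B2, and 7.09 to 26.7 CPM in KI MemB, which overlapped control MemB and was highest in replicate 2, which also had the 46.9 CPM of Tbx21. The part of these cells in the 10 genes was not tested.

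**Figure D4:**
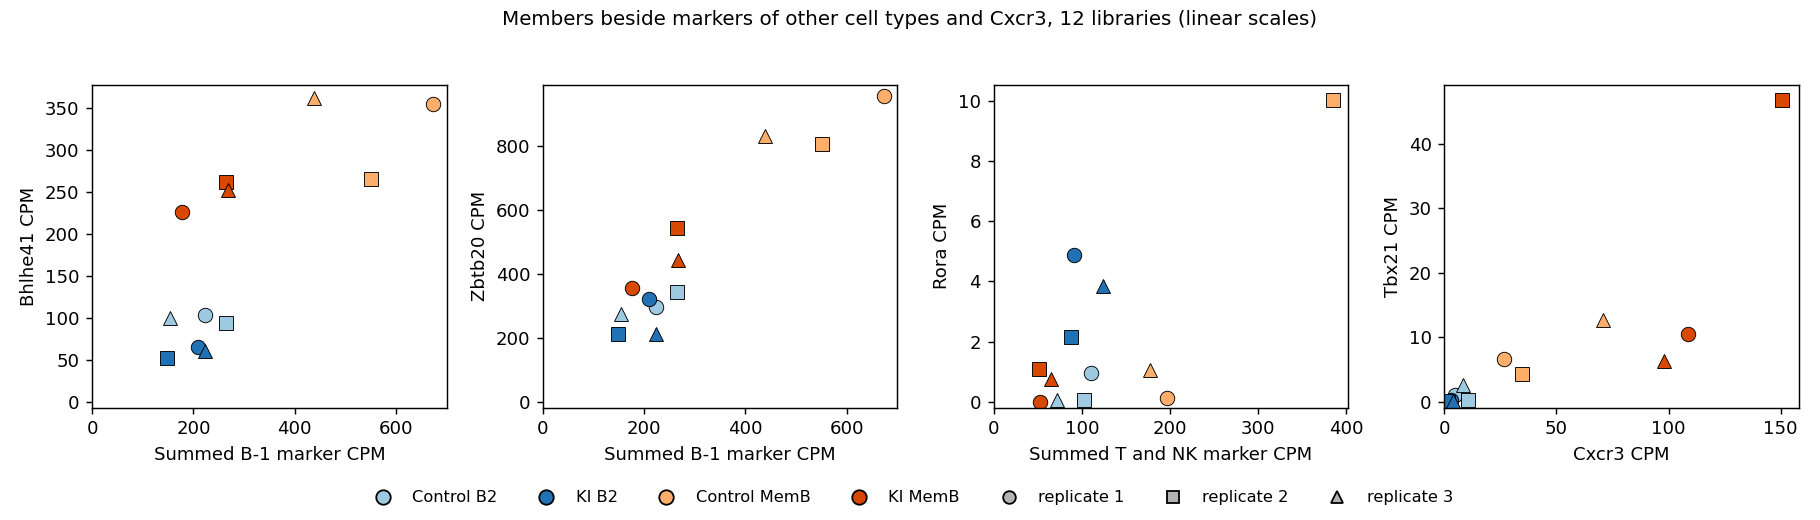
Bhlhe41 and Zbtb20 (CPM) against the summed CPM of 9 B-1 markers, Rora against the summed CPM of 22 markers of T, NK and innate lymphoid cells, and Tbx21 against Cxcr3 (all in CPM, linear axes), each point a library. Control MemB lies at the upper right for Zbtb20, every MemB library lies above every B2 library for Bhlhe41, and a single control MemB library has the highest Rora and T and NK sum.

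As a description of likeness, log2 CPM over the 12 libraries was correlated with that of every named gene tested. These libraries fall into B2 and MemB, so genes that share that step have a high Pearson r whatever happens within a cell type. Bhlhe41 was most like Ighg2c (r = 0.958), Pld4 (0.952), which encodes an endolysosomal nuclease, and Ighg1 (0.952). Zbtb20 was most like Ighg3 (0.913), Pld4 (0.904) and Bhlhe41 (0.901). Zbtb32 was most like Fas (0.974), a death receptor, Cmc2 (0.936) and Ppp3cb (0.915), a calcineurin subunit. Tbx21 was most like Gatm (0.928), an enzyme of creatine synthesis, Bmpr1a (0.923), a BMP receptor, and Cxcr3 (0.921). Klf2 was most like Myo1f (0.945), Fhip1a (0.914) and Lsp1 (0.914), and Bach2 like Tns3 (0.884), Ppp1r16b (0.866) and Tsc22d1 (0.859). Foxo1 was most like Cinp (0.922), Ankzf1 (0.905) and Sh3yl1 (0.902), and Hhex like Acbd4 (0.891), Txndc9 (0.878) and Snapc5 (0.874). Bhlhe40 was most like Hsdl1 (0.865), Krtcap3 (0.855) and Fam111a (0.841), and Rora like Mcoln3 (0.860), Renbp (0.836) and Kcnq5 (0.832).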

How the data were processed

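RNA was amplified, and libraries were sequenced as paired-end reads. Per the labels, reads were checked with FastQC 0.12.1, trimmed with cutadapt 4.5, aligned to mm39 with STAR 2.7.11a and quantified with RSEM 1.3.3. The authors deposited RSEM expected counts per gene, without normalization. Of the values above 0, 32.2% were not whole, and all were rounded here. Counts were tested with edgeR 4.0.16 (R 4.3.3): TMM, filterByExpr (minimum count 10), a robust quasi-likelihood fit of 4 group means over 12 libraries, and Benjamini-Hochberg adjustment over 15148 genes. SE is the fold change divided by the square root of F. CPM is TMM-normalized, and likeness used a prior count of 2. Coordinates are GENCODE M39 on GRCm39, the assembly mm39 denotes. The members and lists were chosen with earlier results of these data known. Named by rule were all 10 members, the 3 genes most like each and, per list, the genes edgeR called. A pair with the lowest p stands in for the circadian, identity and FOXO lists only. A list of homing and survival receptors is not reported here. Igha, and genes named for a DESeq2 call alone, were chosen after their values were seen. Some genes, among them Foxp1, Ebf1, Ciita, Mzb1, Prdm1 and Fkbp11, were named outside these rules. On counts simulated for MemB against B2 (15148 genes), 4.82%, 37.3% and 50.0% of genes changed by 1, 2 and 3 on the log2 scale were recovered, with 1 false call among 55. The changed genes were drawn from all those tested, where the common biological coefficient of variation was 91.4%. Among the 10 members it ran from 26.5% (Zbtb20) to 131% (Rora), so these shares do not give the recovery of the members. Each library was left out in turn, and DESeq2 1.42.0, other normalizations, filters, fits and blocks were tried. Counts of amplified reads without molecular identifiers cover counting error only. P-values measure the spread between biological replicates as labelled.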

Additional observations from a re-analysis of the deposited data

How the results depend on the processing

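Numbers of genes called moved most with the tool. DESeq2 called 825 genes in MemB against B2, 772 and 192 in KI against control in MemB and in B2, and 426 for the difference of the KI effect, of which Tbx21 (4.11) was the 1 of the 8 tested genes called there. Without a filter on low counts the numbers were 236, 90, 8 and 44. With replicate 3 left out of every group they were 88, 24 and 2 in the first 3 comparisons, and 1 of the 8 was called in MemB against B2. A fit that was not robust called 22 genes in KI MemB and 4 for the difference, and a fit on the 6 MemB libraries called 15. For the difference, upper-quartile normalization called 5 genes, leaving out immunoglobulin genes 3 and the replicate block 6. Same-numbered libraries shared little of their deviations from the group means, with correlations from -0.014 to 0.034 over 12 pairs, some of them control against KI. With 3 libraries per group, these values cannot decide whether libraries were paired by mouse. Replicate 3 was of the other sex in every group. With the replicate block Rora in MemB against B2 was -0.020 and Zbtb32 in KI MemB -0.0042, and Foxo1 in KI MemB was -0.086 with replicate 3 left out of every group.

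Leaving out each library in turn gave 104 to 157 genes called in MemB against B2, 15 to 50 in KI MemB, 1 to 2 in KI B2 and 5 to 10 for the difference, and 1 to 3 of the 8 genes in MemB against B2. In the same way Rora ranged from -0.91 to 1.62 in MemB against B2. In KI MemB, Rora ranged from -3.30 to 0.030, Zbtb32 from -0.11 to 0.19, Hhex from -0.11 to 0.49 and Foxo1 from -0.096 to 0.13. In KI B2, Bhlhe40 ranged from -1.19 to 1.92, Bach2 from -0.29 to 0.14, Klf2 from -0.37 to 0.042 and Zbtb32 from -0.11 to 0.95. For the difference, Bhlhe40 ranged from -0.28 to 2.83 and Zbtb32 from -0.90 to 0.15. The cause of these moves was not tested. Tbx21, Rora and Bhlhe40 rested on as few as 0 to 24 counts in some libraries.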
